A study of Oryza sativa with 18 samples.

Results

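Genes for ABC transporters, aquaporins, potassium, zinc, phosphate and sulfate transporters, MATE exporters, major facilitators and antiporters were examined in germinating rice of the csa mutant and of the wild type during early imbibition. They were chosen by search terms in the annotation text of the deposited tables, with amino acid and peptide transporters and loci at the start of chromosome 1 left out. The search found 43 genes of the 3149 distinct genes in the tables, 17 in the table of 3 h, 30 in that of 6 h and 0 in that of 12 h, and 4 of the 43 stood in both of the first tables. The tables list only genes that the authors called different between the genotypes, so every member was called at least once and the number of transport genes that were tested and not called is not known here. No member was found by the terms for sugar transporters or for H+-ATPases (the annotation text has lost its plus signs). None of the 43 genes is therefore annotated in those words, but the annotation of the major facilitators among them mostly names no substrate. Both clauses for leaving genes out removed 0 entries.

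The study compared germinating seeds of Oryza sativa, wild type (labelled 9522) against the csa mutant, at 3 times of imbibition, the uptake of water by the dry seed: 3 h, then 6 h, then 12 h. In rice anthers the MYB protein CSA is known to act on a monosaccharide transporter gene and so on the supply of sugar. Each of the 6 groups held 3 RNA-seq libraries. Their tissue field says embryo, while the extraction protocol speaks of RNA from 5 seeds, so whether other seed parts were removed is not clear. The labels do not give the csa allele, its background or whether replicates came from separate plants. The p-values therefore apply to these samples and may not extend to other plants. Seeds were surface-sterilised and imbibed in dilute MS medium, a plant salt mixture, the same way for both genotypes.

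Membrane transporters decide what a germinating embryo takes up and moves between its compartments. Aquaporins are channels for water and small uncharged molecules, channels and carriers of the AKT and HAK families take up potassium, and PHT1 proteins take up phosphate with protons. ABC proteins move substrates with the energy of ATP, MATE proteins export organic acids and secondary compounds in exchange for cations, and ZIP proteins carry zinc and related metals into the cytosol. In a seed, water uptake, refilling of vacuoles and the release of stored minerals take place within hours of wetting.

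Values are raw read counts of each library in the order of replicates 1, 2 and 3. A log2 ratio is csa over wild type, from the means of counts scaled for library depth, with its standard error (SE, n = 3 libraries per genotype), and the false discovery rate (FDR) is that of the authors' deposited table. Recovered scaling factors at the 3 times lay between 0.918 and 1.11, so relative depth was nearly even, while total depth is unknown. The mutated gene, CSA, was listed at 6 h only, with raw counts of 92, 81 and 201 in csa against 310, 305 and 380 in wild type (log2 ratio -1.38 ± 0.40). In wild type replicate 3 at 12 h the genotype field and the title contradict each other, but no transporter gene was listed at that time. Embryo marker genes were listed, 7 at 3 h and 6 at 6 h, all higher in csa. Their summed scaled counts ran from 97716 to 187766 against 39253 to 62966 in wild type at 3 h. At 6 h they ran from 74594 to 85723 against 27031 to 39389. Endosperm markers (glutelin and prolamin genes) were listed as well, 4 at 3 h and 2 at 6 h, again all higher. The summed scaled counts of the endosperm markers ran from 5120 to 6670 in csa and from 2119 to 2589 in wild type at 3 h, and from 320.2 to 516 against 165 to 208 at 6 h. For amylase genes, markers of aleurone and scutellum, 4 were listed at 3 h and 2 at 6 h, all higher in csa, with sums from 1045 to 6127 against 244 to 622 and from 185 to 359 against 34.5 to 64.6. Only listed genes could be summed, and the part of these tissues in the transporter results was not tested. In such bulk libraries, fewer cells of a type and less RNA per cell cannot be told apart.

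At 3 h the transporter genes were called in both directions, with 10 of 17 higher and 7 lower in csa. Over all genes tested at 3 h, 4.91% were called, 3.49% as higher and 1.42% as lower. Of all 1050 entries listed at that time 71.0% were higher, against 58.8% of the transporter genes, whose median log2 ratio was 1.02 against 1.20 for all listed entries. At 6 h more were lower than higher, 18 of 30 against 12, where 10.3% of all genes tested were called, 6.03% as higher and 4.3% as lower. Of all 2388 genes listed at 6 h, 58.4% were higher, against 40.0% of the transporter genes, and the median log2 ratios were -1.05 for the transporter genes and 1.11 for all. These shares and medians describe a list drawn from called genes, all past the fold threshold of 1, and were not tested. A median in such a list takes the sign of the larger side. In size alone, the median log2 ratios were 1.46 for the transporter genes and 1.35 for all at 3 h, and 1.45 and 1.42 at 6 h. At 12 h, when 0.4% of all genes tested were called, no member was listed. The split at 3 h changed with TMM factors computed over the listed genes alone. Such factors are centred on these called genes by construction. With 71.0% of the entries higher at 3 h, a shift towards lower was set in advance and is no evidence against the authors' scaling. The shift in the median log2 ratio was -1.24 at 3 h and -0.59 at 6 h. By sign alone 6 members were then higher and 11 lower at 3 h (35.3% higher, against 46.5% of all listed entries). At 6 h the split by sign alone was 12 and 18. The fold threshold was passed under that scaling by 1 higher and 7 lower members at 3 h and by 4 higher and 18 lower at 6 h. Over all listed entries the counts past the threshold were then 91 higher and 304 lower at 3 h and 573 and 993 at 6 h. The members still past it as higher were LOC_Os02g58620 at 3 h (log2 ratio 1.18) and PIP1-3, LOC_Os08g05580, PHT1-4 and LOC_Os08g06010 at 6 h (1.05 to 4.55), whereas PIP1-3 at 3 h stood at 0.52 and AKT1 at 0.88.

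**Figure D1:**
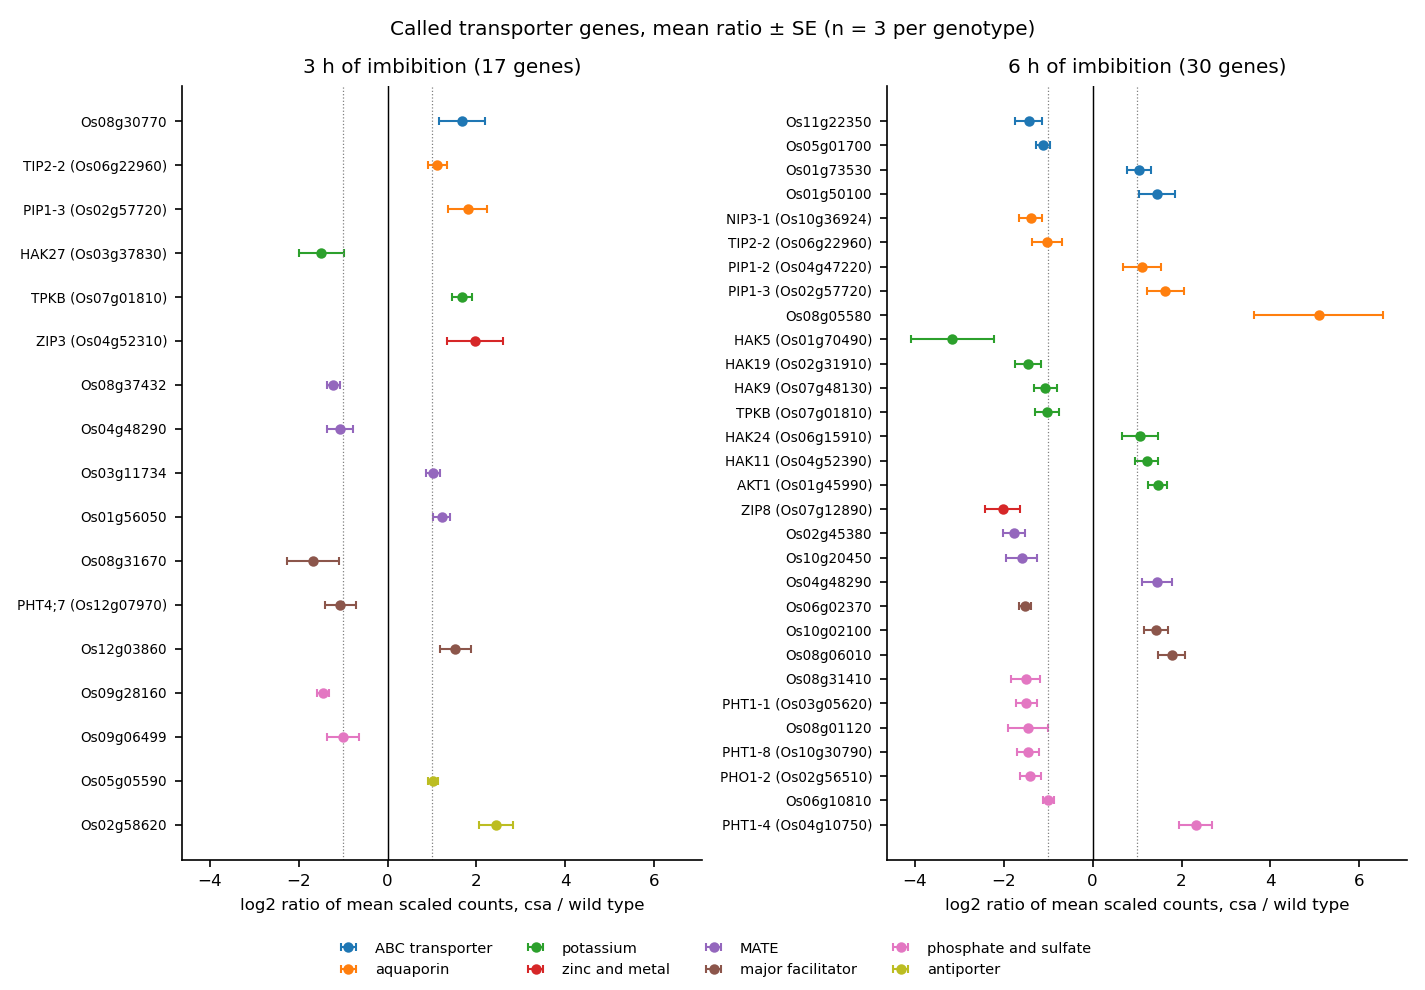
Log2 ratio of mean scaled counts, csa over wild type, of every transporter gene listed at 3 h (left, 17 genes) and 6 h (right, 30 genes), with SE from 3 libraries per genotype. Colours give the families, dotted lines the authors' fold threshold of 1 on the log2 scale. Of the 7 phosphate and sulfate genes at 6 h, 6 lie left of the lower dotted line and PHT1-4 lies at 2.32.

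Among the water channels 2 genes were listed at both times. PIP1-3, a plasma membrane intrinsic protein of the kind that lets water pass the outer membrane of the cell, was higher in csa at both times. Its raw counts at 3 h were 611, 881 and 324 in csa against 204, 204 and 142 in wild type, and at 6 h 280, 355 and 488 against 100, 78 and 202. All csa values lay above all wild type values at each time, although csa replicate 3 was the lowest mutant library at 3 h and the highest at 6 h. The log2 ratios were 1.80 ± 0.44 (FDR 5.81e-08) and 1.63 ± 0.42 (FDR 8.3e-06) by the authors' deposited table. A close relative, PIP1-2, was listed at 6 h only, with counts of 2087, 2337 and 1341 in csa against 1248, 929 and 579 and a log2 ratio of 1.10 ± 0.42 (authors' FDR 0.00762). The lowest csa count of PIP1-2 stood near the highest wild type count, and the sources used here do not give how reads shared between such similar genes, also in the HAK, PHT1 and facilitator families, or the strand of reads were handled.

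TIP2-2, an aquaporin of the tonoplast, the membrane of the vacuole, was higher in csa at 3 h, though not with TMM scaling over the listed genes, and lower at 6 h. The counts at 3 h were 774, 1029 and 946 in csa against 468, 507 and 355 in wild type, a log2 ratio of 1.12 ± 0.20 (authors' FDR 7.9e-07). At 6 h they were 1180, 1499 and 728 against 2038, 2604 and 2605, a ratio of -1.03 ± 0.34 (authors' FDR 0.0031). The genotypes did not overlap at either time. Wild type counts ran from 355 to 507 in the 3 h table and from 2038 to 2605 in the 6 h table, while the csa counts ran from 774 to 1029 and from 728 to 1499. Tables of the 2 times were scaled separately, so levels between times were not tested.

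Both nodulin-26-like aquaporins were listed at 6 h, in opposite directions. NIP3-1, known in rice as a channel for boric acid, had 344, 257 and 202 counts in csa against 684, 699 and 822 in wild type (log2 ratio -1.40 ± 0.25, authors' FDR 3.97e-07). All wild type libraries lay far above the mutant ones. LOC_Os08g05580, annotated as similar to the aquaporin NIP3-3, had 22, 16 and 30 counts in csa against 2, 0 and 0 in wild type. From 68 against 2 counts the ratio was 35.1, with an exact 95% counting interval from 9.36 to 296 that covers counting error only. Its direction is clear from the counts, and its size is not.

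Potassium transport was split within the family at 6 h, with 3 genes higher and 4 lower in csa. AKT1, the inward-rectifying channel known for potassium uptake by rice roots, had 200, 167 and 203 counts in csa against 69, 51 and 96 in wild type. The groups stood well apart, with a log2 ratio of 1.46 ± 0.21 (authors' FDR 3.7e-07). HAK11 was higher too, at 383, 366 and 627 against 232, 177 and 195 (1.22 ± 0.26, authors' FDR 1.86e-05). HAK24, with 404, 230 and 527 against 255, 143 and 165, was the single member at 6 h whose genotypes overlapped, through csa replicate 2 and wild type replicate 1 (1.07 ± 0.40, authors' FDR 0.00692). Of the genes listed at 6 h, 97.3% had genotypes that did not overlap, as had 29 of the 30 members. The corresponding values at 3 h were 96.1% and 17 of 17.

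Among the lower potassium genes, HAK19 had 143, 114 and 167 counts in csa against 265, 367 and 574 in wild type (log2 ratio -1.45 ± 0.29, authors' FDR 4.72e-06). HAK9 stood at 308, 319 and 544 against 715, 763 and 1048 (-1.07 ± 0.26, authors' FDR 1.17e-04). HAK5, a high-affinity uptake carrier in rice, had 5, 2 and 8 counts in csa against 21, 17 and 105 in wild type. Every wild type count was higher than every mutant count, but wild type replicate 3 set much of the size. The log2 ratio was -3.16 ± 0.94 with all libraries (authors' FDR 3.75e-04) and -1.92 without that library in an edgeR refit. At 3 h a further member of the family, HAK27, was lower in csa, at 50, 12 and 32 against 84, 86 and 105 counts (-1.49 ± 0.50, authors' FDR 0.00123).

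TPKB, a tandem-pore potassium channel of vacuolar membranes, changed direction between the times, as TIP2-2 did. The 3 h counts were 23, 22 and 16 in csa against 8, 6 and 6 in wild type (log2 ratio 1.68 ± 0.23, authors' FDR 0.0305). At 6 h they were 30, 38 and 32 against 54, 59 and 102 (-1.03 ± 0.27, authors' FDR 0.015). Counts were low, and the genotypes did not overlap at either time.

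**Figure D2:**
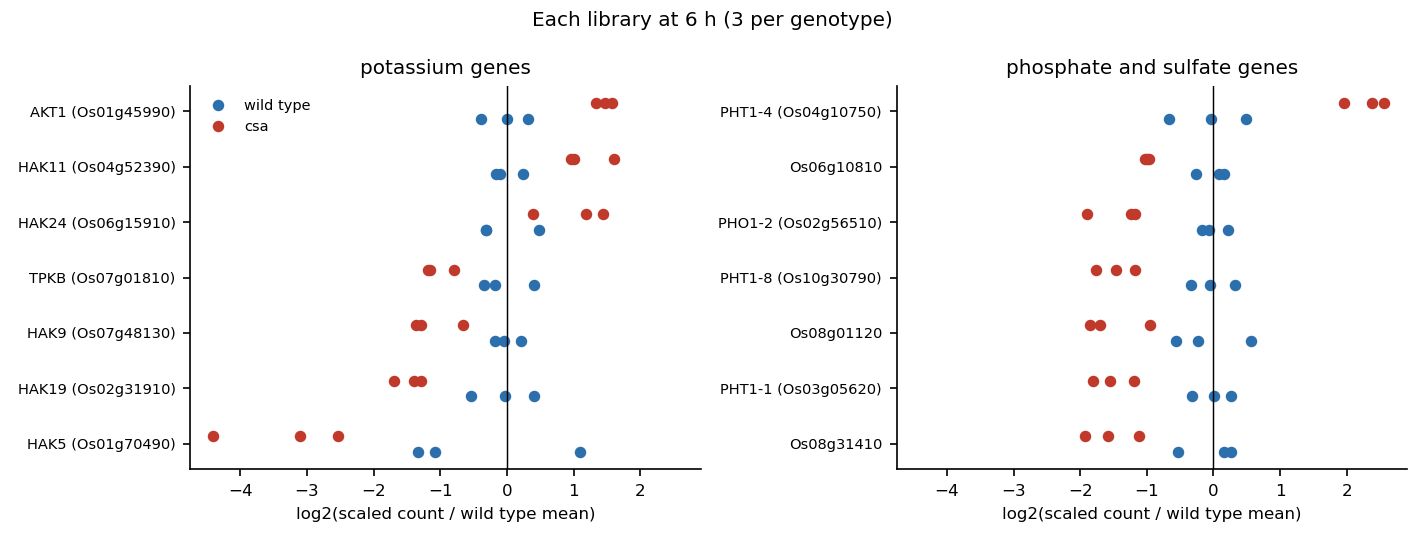
Scaled count of each library at 6 h relative to the wild type mean (log2) for the potassium genes (left) and the phosphate and sulfate genes (right), with 3 csa libraries in red and 3 wild type libraries in blue. AKT1, HAK11 and PHT1-4 lie to the right of all their wild type points, HAK24 overlaps, and the other genes lie to the left.

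Phosphate and sulfate members leaned to lower in csa: 6 of the 7 listed at 6 h and both listed at 3 h. Of all listed entries, 993 of 2388 were lower at 6 h and 304 of 1050 at 3 h, and the lean was not tested. PHT1-8, a phosphate uptake carrier of the plasma membrane, had 2048, 1661 and 1493 counts in csa against 3783, 5785 and 5140 in wild type. That is a log2 ratio of -1.45 ± 0.25 (authors' FDR 5.15e-08), with each mutant library far below each wild type library. PHT1-1, another carrier of the same family, had 183, 233 and 167 against 441, 538 and 737 (-1.49 ± 0.24, authors' FDR 5.61e-08). PHO1-2, which in rice passes phosphate to the xylem, had 40, 25 and 45 against 86, 89 and 125 (-1.40 ± 0.24, authors' FDR 9.71e-05). The exception among the members was PHT1-4, also of this family, with 24, 36 and 35 counts in csa against 4, 6 and 10 in wild type (2.32 ± 0.37, authors' FDR 2.35e-04). PHT1-5, annotated only as a general substrate transporter and so no member, was higher at 6 h as well (2.11 ± 0.64, authors' FDR 6.99e-04). Genes of one uptake family were therefore called in opposite directions in the same libraries.

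A gene annotated as a mitochondrial phosphate transporter, the kind of carrier that brings phosphate into the matrix for ATP synthesis, was lower at 3 h and at 6 h, but not the same one. At 3 h LOC_Os09g28160 had 173, 166 and 189 counts in csa against 549, 425 and 548 in wild type (log2 ratio -1.46 ± 0.13), and its authors' FDR of 9.28e-12 was the smallest of the members at that time. At 6 h LOC_Os06g10810 had 358, 347 and 372 against 600, 779 and 854 (authors' FDR 2.66e-06), or 0.499 of the wild type mean, just past the fold threshold. The 3 sulfate transporter members were lower as well, but LOC_Os03g06520, annotated with the spelling sulphate and so not found by the search, was higher at 3 h (1.46 ± 0.41) and at 6 h (1.45 ± 0.19). LOC_Os08g31410 had 279, 157 and 219 against 431, 671 and 833 at 6 h (-1.51 ± 0.33, authors' FDR 3.74e-06), and LOC_Os08g01120 had 17, 9 and 11 against 23, 28 and 56 (-1.45 ± 0.46, authors' FDR 0.0204). At 3 h LOC_Os09g06499, similar to a chloroplast sulfate transporter, had 40, 23 and 38 against 48, 97 and 68 (-1.01 ± 0.35, authors' FDR 0.0331).

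The search found 1 zinc carrier gene at 3 h and 1 at 6 h. ZIP3 was higher in csa at 3 h, with 21, 22 and 28 counts against 9, 9 and 1 in wild type (log2 ratio 1.97 ± 0.62, authors' FDR 0.0127). ZIP8 was lower at 6 h, with 151, 94 and 90 against 293, 473 and 663 (-2.02 ± 0.39, authors' FDR 2.1e-08). For both the genotypes were separate, ZIP3 at low counts. Outside the search terms, and named after their values were seen, 2 genes whose annotation mentions zinc were listed at 6 h in opposite directions. LOC_Os01g41720, with a CorA-like or ZntB domain, was higher (1.72 ± 0.33, authors' FDR 7.84e-05). LOC_Os11g29490, a P-type ATPase gene annotated for several metals, was lower (-1.20 ± 0.19, authors' FDR 2.01e-05).

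MATE genes showed no common direction. At 3 h LOC_Os08g37432 had 1346, 1111 and 1568 counts in csa against 3259, 3082 and 3484 in wild type (log2 ratio -1.22 ± 0.14, authors' FDR 1.86e-11). LOC_Os01g56050, by contrast, was higher, at 145, 182 and 184 against 66, 71 and 95 (1.22 ± 0.20, authors' FDR 2.93e-05), and so was LOC_Os03g11734 (1.01 ± 0.16, authors' FDR 0.00637), but both turned below 0 with TMM scaling over the listed genes. At 6 h LOC_Os02g45380 had 103, 143 and 115 against 313, 478 and 486 (-1.77 ± 0.25, authors' FDR 5.5e-10) and LOC_Os10g20450 had 37, 30 and 61 against 98, 159 and 136 (-1.59 ± 0.35, authors' FDR 3.72e-05). The MATE gene LOC_Os04g48290 was listed at both times. It was lower in csa at 3 h, with 1103, 844 and 689 against 1528, 1782 and 2563 counts (-1.08 ± 0.29, authors' FDR 2.53e-05). At 6 h it was higher, with 1173, 1434 and 850 against 555, 377 and 380 (1.45 ± 0.33, authors' FDR 7.08e-06). The genotypes of this gene were separate at both times, and the wild type counts were high in the first table and low in the second.

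Members annotated with the word antiporter, proteins that exchange one solute for another across a membrane, were listed at 3 h only. Among them is LOC_Os12g03860, annotated as a major facilitator antiporter and counted below with the major facilitators. Genes annotated as exchangers, which the search terms do not cover, were also listed at 6 h, among them the cation/proton exchanger genes LOC_Os08g02450 (log2 ratio 1.87) and LOC_Os05g02240 (1.25), a K-exchanger gene, LOC_Os03g45370 (1.08), and a sodium/hydrogen exchanger gene, LOC_Os08g36250 (-1.31), named after their values were seen. At 3 h the largest ratio of any member belonged to LOC_Os02g58620, annotated as similar to an antiporter and drug transporter. Its counts at 3 h were 171, 191 and 85 in csa against 21, 34 and 32 in wild type (log2 ratio 2.44 ± 0.38, authors' FDR 1.22e-10). LOC_Os05g05590, similar to a sodium/proton antiporter, had 49, 41 and 49 against 24, 21 and 27 (1.02 ± 0.12, authors' FDR 0.0362), and was lower instead with TMM scaling over the listed genes.

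Major facilitators, a large superfamily of carriers whose substrates the annotation mostly does not name, had 1 higher and 2 lower members at 3 h and 2 higher and 1 lower at 6 h. PHT4;7, by its RefSeq name a phosphate transporter of the PHT4 group, had 357, 145 and 366 counts in csa against 630, 588 and 676 in wild type at 3 h (log2 ratio -1.06 ± 0.35, authors' FDR 9.64e-04). LOC_Os08g31670 was lower at low counts (21, 3 and 23 against 47, 59 and 51, log2 ratio -1.68 ± 0.59, authors' FDR 0.0042) and LOC_Os12g03860 higher (29, 60 and 47 against 13, 18 and 19, 1.53 ± 0.34, authors' FDR 0.00463). At 6 h LOC_Os06g02370 had the smallest authors' FDR of the members, 1.37e-12, with 264, 238 and 210 counts against 635, 703 and 783 (-1.52 ± 0.14). LOC_Os08g06010 was higher at 1797, 1671 and 1954 against 725, 498 and 393 (1.77 ± 0.30, authors' FDR 1.09e-09), and its mutant libraries lay close together. LOC_Os10g02100 had 22 counts in each csa library against 9, 10 and 6 (1.43 ± 0.26, authors' FDR 0.0325).

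Of the ABC transporter members at 6 h, 2 were higher and 2 lower. A further pair of genes annotated as ABC-2 type transporters, outside the search terms and named after their values were seen, was lower at 6 h (LOC_Os06g30730 at -1.10 and LOC_Os02g11760 at -1.01). LOC_Os01g73530, similar to a peroxisomal ABC transporter (in Arabidopsis such a protein imports fatty acyl substrates for breakdown), had 1335, 1089 and 1931 counts in csa against 839, 524 and 803 in wild type (log2 ratio 1.05 ± 0.27, authors' FDR 2.32e-04). LOC_Os01g50100, similar to MDR-type transporters, had 48, 58 and 68 against 30, 10 and 26 (1.45 ± 0.41, authors' FDR 0.00314). LOC_Os05g01700 was lower, at 336, 322 and 266 against 613, 660 and 828 (-1.12 ± 0.16, authors' FDR 7.87e-07), as was LOC_Os11g22350, at 20, 21 and 17 against 56, 67 and 38 (-1.44 ± 0.31, authors' FDR 0.0038). At 3 h the family had 1 entry, LOC_Os08g30770, higher at 113, 50 and 196 against 32, 42 and 44 (1.67 ± 0.52, authors' FDR 3.31e-04).

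Of the 4 transporter genes listed at both 3 h and 6 h, 3 changed direction: TIP2-2 (with the authors' scaling), TPKB and the MATE gene LOC_Os04g48290. Of all 326 genes with a single entry in both tables, 45 (13.8%) had opposite directions. The change of the csa effect was tested as a genotype by time interaction with edgeR's quasi-likelihood test, Benjamini-Hochberg adjusted over these 326 genes, of which 17.5% passed at an adjusted p of 0.05. The csa effect at 6 h minus that at 3 h was -2.15 for TIP2-2 (adjusted p = 7.35e-04), -2.70 for TPKB (adjusted p = 6.3e-04) and 2.53 for LOC_Os04g48290 (adjusted p = 2.25e-04) on the log2 scale. For PIP1-3 it was -0.17 (adjusted p = 0.957), which does not show that its effect was equal at both times. Leaving out each of the 12 libraries in turn kept the 3 differences between -2.43 and -1.88, -2.86 and -2.44, and 2.30 and 2.76, with a largest adjusted p of 0.00537. Under TMM scaling over the listed genes they were -1.49, -2.06 and 3.17 (adjusted p 0.0135, 0.00594 and 1.02e-04 by the same test), although the 3 h ratio of TIP2-2 itself then turned from 1.12 to -0.12. The genes in this test had all been called at both times. For the 3 genes called in opposite directions, a difference of at least 2 on the log2 scale was set by that selection, so their adjusted p-values are no independent evidence.

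**Figure D3:**
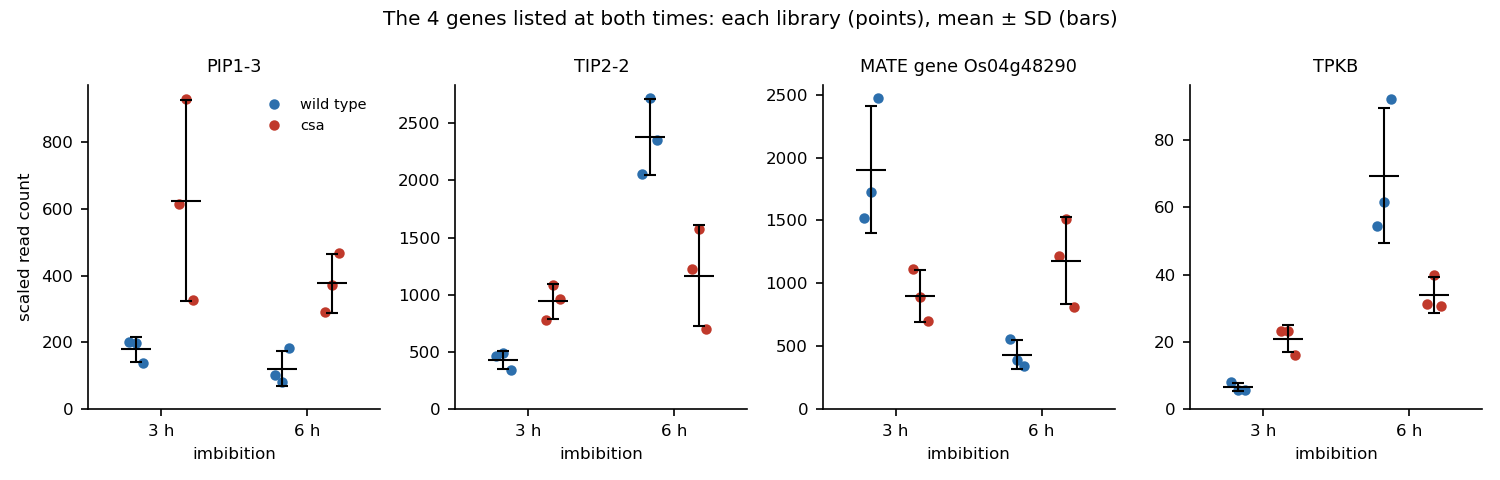
Scaled read counts of PIP1-3, TIP2-2, the MATE gene LOC_Os04g48290 and TPKB in each library at 3 h and 6 h, csa in red and wild type in blue, with mean and SD of 3 libraries. In TIP2-2 and TPKB the csa points lie above the wild type at 3 h (for TIP2-2 with the authors' scaling, not with TMM) and below it at 6 h, in the MATE gene the reverse, and in PIP1-3 above it at both times.

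Single libraries shaped some members. At 3 h csa replicate 2 stood farthest from its group, with a median absolute log2 distance of 0.547 over all listed entries against 0.251 to 0.450 for the other libraries. Members lower in csa were a further 0.68 lower there than in the other csa libraries (median, log2), against 0.40 over all lower entries, as in HAK27 with 12 counts and PHT4;7 with 145. Without this library PHT4;7 had a log2 ratio of -0.75, under the fold threshold. At 6 h csa replicate 3 stood farthest, at 0.497 against 0.312 to 0.413. The wild type libraries of that time also differed in transporter levels. Members lower in csa were a median 0.46 (log2) below the other wild type libraries in replicate 1 (0.25 over all lower genes) and 0.26 above the others in replicate 3 (0.03 over all lower genes). Members higher in csa deviated the other way, by a median 0.52 in replicate 1 (0.43 over all higher genes), -0.27 in replicate 2 (-0.27) and -0.32 in replicate 3 (-0.13). Replicate 1 held the lowest wild type value in 17 of the 30 members and the highest in 8.

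An edgeR refit of all listed genes kept 15 of 17 members at 3 h and 30 of 30 at 6 h. Over all listed genes 95.5% were kept at each time. Kept genes had the same direction, a log2 ratio of at least 1 in size and a p within that of the authors' list. The refit used the same counts and genes already selected by like limits. That most were kept was thus largely set in advance and is no independent support for a member. LOC_Os09g06499 and LOC_Os05g05590, both near the fold threshold, were not kept (p 0.0119 and 0.012 against a limit of 0.00694). When each library was left out in turn, 6 members at 3 h and 17 at 6 h were kept in every refit. Of the members, 10 to 14 of 17 were kept in a single refit at 3 h and 22 to 29 of 30 at 6 h, where 62.4% to 88.1% and 65.6% to 82.3% of all listed genes were kept. The 6 were PIP1-3, LOC_Os09g28160, LOC_Os08g37432, LOC_Os02g58620, LOC_Os08g30770 and HAK27. Those at 6 h included AKT1, HAK19, HAK5, NIP3-1, PIP1-3, ZIP8, PHT1-8, PHT1-1, PHT1-4 and PHO1-2. Without csa replicate 2 there were 8 higher and 5 lower members at 3 h, and at 6 h there were 9 higher and 13 lower without csa replicate 3 and 8 and 14 without wild type replicate 2. The counts at 3 h were lowest without wild type replicate 3, at 5 higher and 5 lower, and 6 members were higher without wild type replicate 1 or replicate 2.

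The members not kept in every refit kept their direction in all of them. At 3 h TIP2-2 was lost without wild type replicate 3 (log2 ratio 0.98), ZIP3 without the same library (1.45) and LOC_Os04g48290 without it (-0.85) or without csa replicate 3 (-0.93). LOC_Os01g56050 was lost without wild type replicate 1 (1.13) or 2 (1.15), LOC_Os08g31670 without csa replicate 1 (-1.92) and LOC_Os12g03860 without csa replicate 2 (1.24) or wild type replicate 1 (1.38). TPKB was lost without csa replicate 1 (1.58) and without wild type replicate 2 or 3 (1.59 each), and LOC_Os03g11734 in 4 of 6 refits (0.92 to 1.15). At 6 h LOC_Os05g01700 and HAK11 were lost without csa replicate 3 (-0.99 and 0.98), LOC_Os01g50100 and LOC_Os11g22350 without wild type replicate 2 (1.13 and -1.20), and LOC_Os01g73530 without either library (0.84 and 0.89). TIP2-2 was lost without csa replicate 1 (-1.06), csa replicate 3 (-0.76) or wild type replicate 2 (-0.92), HAK9 without csa replicate 1 (-0.94), csa replicate 2 (-0.97) or wild type replicate 3 (-0.95), and LOC_Os08g01120 without csa replicate 2 (-1.29), csa replicate 3 (-1.34) or wild type replicate 3 (-1.06). HAK24, PIP1-2 and LOC_Os10g02100 were each lost in 4 refits, with ratios in all 6 refits from 0.84 to 1.38, 0.82 to 1.40 and 1.19 to 1.62. TPKB and LOC_Os06g10810 were lost in 5 refits (-1.18 to -0.77 and -1.12 to -0.92 over all 6).

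The direction of the members was set beside that of other transport genes, those whose annotation names a transporter, channel, exchanger, permease, symporter or carrier without matching the search. These 86 genes hold amino acid and peptide transporters and a few unrelated proteins, such as an acyl carrier protein synthase. At 3 h 19 of 28 were higher in csa and at 6 h 22 of 64, or 67.9% and 34.4%, against 58.8% and 40.0% of the members. No test was made of these shares.

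**Figure D4:**
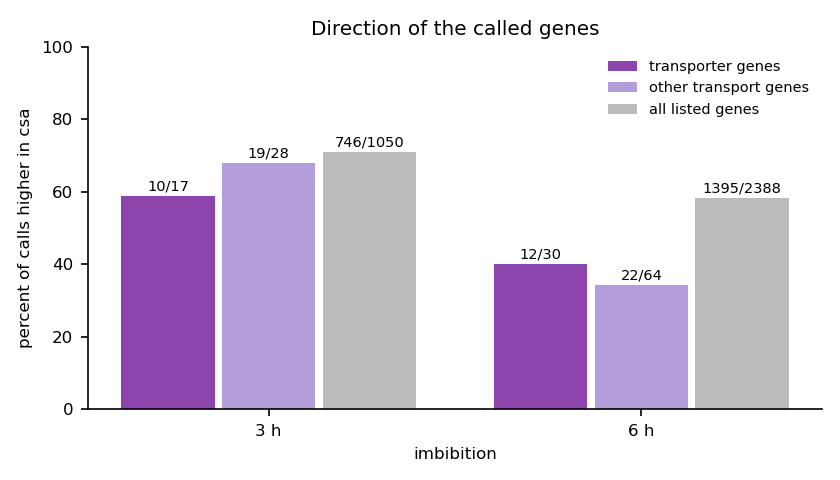
Percent of called genes higher in csa at 3 h and 6 h among the transporter genes, other transport genes and all listed genes, with counts above the bars. At 6 h both transport lists lie below the 58.4% of all listed genes.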

How the data were processed

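RNA-seq libraries of 18 samples were used through 3 tables, 1 per time. The deposited tables hold a column for each library, whose values were taken as raw read counts. By the file headers they also hold the authors' log2 fold change (csa over wild type), p-value and FDR, and annotation text. The listed genes meet an FDR of 0.05 and an absolute log2 fold change of 1. DESeq2 is named, with no version, in the submitters' processing notes. The sources used here do not give the aligner, counting tool, strand or genome build. Samples were grouped by title, and 0 sample columns were unmatched.

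Library factors were recovered by fitting ratios of mean scaled counts to the deposited log2 fold changes (robust residual SD 5.27e-04 and 0.00141 at 3 h and 6 h), and the numbers of genes tested (21397, 23117 and 21242) from the deposited p and FDR values. Refits of the listed genes used edgeR 4.0.16 (quasi-likelihood) and DESeq2 1.42.0 in R 4.3.3. A member was kept when its p was at most the largest p of the authors' list (0.00694 at 3 h, 0.0117 at 6 h), with the same direction and an absolute log2 ratio of at least 1. The refits were tested on simulated counts in which only some genes differed between the genotypes. Every gene of these lists was called, so that test does not show how the refits behave on them. Members, lists and tests were chosen with earlier results of these data known. All members are described, which covers the rule for named genes (members listed at more than 1 time, the smallest FDR per family and direction, and a panel of transporter symbols). Names come from RefSeq (ASM3414082v1), matched by gene number for 40 of 43 members and giving a transporter name for 19. Sequences were not analysed here.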

Additional observations from a re-analysis of the deposited data

Results flagged for a closer look

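The effect of csa differed between 3 h and 6 h in 3 transporter genes, by the genotype by time interaction in edgeR's quasi-likelihood test (Benjamini-Hochberg over 326 genes listed at both times). The difference, 6 h minus 3 h on the log2 scale, was 2.53 for the MATE gene LOC_Os04g48290 (adjusted p = 2.25e-04), -2.15 for the tonoplast aquaporin gene TIP2-2, LOC_Os06g22960 (adjusted p = 7.35e-04), and -2.70 for the potassium channel gene TPKB, LOC_Os07g01810 (adjusted p = 6.3e-04). In each of these genes all csa libraries, as scaled by the authors, lay on one side of all wild type libraries at 3 h and on the other side at 6 h. Because they were selected as called past a log2 ratio of 1 in opposite directions, a difference of at least 2 was set before the test, and the adjusted p-values are no independent evidence of it. Single outlying values were not tested with Dixon's criterion, since each group has 3 libraries.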

How the results depend on the processing

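Member counts at 3 h (10 higher, 7 lower) and 6 h (12 and 18) stayed within 1.5 times under the edgeR and DESeq2 refits, an FDR of 0.01 and the demand that genotypes not overlap. These settings reuse the same counts of genes already called, so this closeness is no independent support. Requiring an absolute log2 ratio of 2 left 1 higher and 0 lower at 3 h and 2 of each at 6 h, and a mean raw count of 50 left 6 higher at 3 h. Leaving out single libraries left 5 to 9 higher members at 3 h. With the replicate number as a block, 9 and 6 members were kept at 3 h and 12 and 17 at 6 h. Same-numbered libraries did not all deviate together (correlations -0.05, 0.22 and 0.24 at 3 h, -0.21, 0.29 and 0.18 at 6 h). The labels give no pairing. With 3 libraries per group such correlations cannot decide whether same-numbered libraries were processed together. TMM over the listed genes, which is centred on these called genes by construction, gave 6 higher and 11 lower at 3 h by sign alone. With the fold threshold kept, it left 1 higher and 7 lower at 3 h and 4 and 18 at 6 h, so that 17 ratios fell short of the threshold. Of these, 4 turned: TIP2-2 to -0.12, LOC_Os01g56050 to -0.025, LOC_Os03g11734 to -0.20 and LOC_Os05g05590 to -0.19. Search terms with the missed spellings, chosen after seeing the data like the TMM counts, gave 12 and 7 at 3 h and 13 and 20 at 6 h. Including loci at the start of chromosome 1 changed no count. Of 564 alternatives for single genes, 467 kept direction and threshold, 93 kept direction only and 4 reversed. The 3 genotype by time differences kept direction and threshold under the alternatives run, except that TPKB could not be fitted with a mean raw count of at least 50. Low counts limit the size of the ratios of TPKB, ZIP3, HAK5 and LOC_Os08g05580.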

Other observations

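Genes of sugar transport stood outside the search because their annotation uses other words. They were named after their values were seen. A gene similar to monosaccharide transporter 3, LOC_Os02g06540, was higher in csa at both times, with raw counts of 47, 50 and 21 in csa against 13, 14 and 11 in wild type at 3 h and 18, 18 and 22 against 11, 4 and 3 at 6 h (log2 ratios 1.71 ± 0.36 and 1.71 ± 0.63, n = 3). At 6 h the hexose transporter genes LOC_Os07g01560 and LOC_Os03g11900 were lower (-1.52 ± 0.52 and -1.06 ± 0.48), as were monosaccharide transporter 2, LOC_Os03g39710 (-1.08 ± 0.45), and a sugar/inositol transporter gene, LOC_Os11g38160 (-1.05 ± 0.41). Sorbitol transporter annotations gave 1 gene higher at 3 h (LOC_Os12g32940, 1.33 ± 0.16) and another lower at 6 h (LOC_Os03g10100, -1.69 ± 0.75).

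Proton pumps, which drive many of the carriers above, were missed through the lost plus sign. A plasma membrane H+-ATPase gene, LOC_Os02g55400, had 20, 22 and 14 counts in csa against 1, 2 and 4 in wild type at 3 h (log2 ratio 3.09 ± 0.57, authors' FDR 0.00154). The gene of vacuolar H+-ATPase subunit A, LOC_Os02g07870, had 73, 72 and 99 against 194, 175 and 169 at 6 h (-1.11 ± 0.15, authors' FDR 7.24e-05).

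PHT1-5, LOC_Os04g10690, annotated only as a general substrate transporter, had 38, 33 and 47 counts in csa against 17, 4 and 7 in wild type at 6 h (2.11 ± 0.64, authors' FDR 6.99e-04). In RefSeq it lies on chromosome 4 with 1 protein-coding gene between it and PHT1-4, the phosphate transporter gene that was also higher. At 12 h the other transport genes listed were a chloride channel gene, LOC_Os12g25200, higher in csa at 132, 61 and 129 against 27, 28 and 44 counts (1.77 ± 0.44), and a urea transporter gene, LOC_Os10g42960, lower at 16, 36 and 11 against 77, 57 and 66 (-1.67 ± 0.46). Wild type replicate 3 of these values is the library whose labels contradict each other. For the chloride channel gene its count of 44 lay between the other wild type counts and the lowest csa count, 61, and for the urea transporter gene its count of 66 lay within the wild type range.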
